A study of Homo sapiens with 9 samples.

Results

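The change from day 7 to day 21 was followed in embryoid bodies kept in ethanol. The 4 arrays used were those of the series labelled with ethanol, out of 9 in all: each of day 7 and day 21 had 1 array with 50 mM ethanol and 1 with 50 mM ethanol and FA. They were chosen by these labels and by no measured value. The cells were NCCIT, a human embryonal carcinoma line similar to pluripotent cells. In dishes to which they cannot attach they grow as embryoid bodies, floating clumps in which differentiation sets in. For comparison, the series also held 1 array each at day 7 and day 21 of embryoid bodies without addition, 1 each with FA alone, and 1 array of undifferentiated cells. What FA stands for, and its dose, the labels do not say. The protocol describes 7 days of aggregate culture with the ethanol medium changed daily, and how the aggregates were kept from day 7 to day 21 is known only from the sample titles.

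Every condition was a single array of 1 cell line, and nothing in the labels says that arrays came from separate cultures. The comparison was therefore the mean of 2 matched differences, day 21 minus day 7 with ethanol alone and day 21 minus day 7 with ethanol and FA. Values are log2 expression, so a difference of 1 is a 2-fold change, and each difference is given with its standard error (SE). That SE comes from what a model of ethanol, FA, day and the joint effect of ethanol and day left unexplained over the 8 embryoid body arrays (the undifferentiated array has a term of its own), so a p-value covers no more than the spread among these arrays, part of which may be technical. All adjusted p-values are from limma with Benjamini-Hochberg adjustment over 12254 genes, and "rose" and "fell" are used only for genes under 0.05. In a mixed aggregate, fewer cells of a type and less RNA per cell cannot be told apart.

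Pluripotent cells hold their state with a network of transcription factors and with growth factor signals through FGF and NODAL receptors. Retinoic acid, made from vitamin A, binds nuclear receptors that switch on HOX genes, which give the hindbrain and trunk their positional identity, and also switches on the enzymes that destroy it. NCCIT cells are known to respond to retinoic acid, and prenatal ethanol is known to disturb the early nervous system.

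One ethanol array stood apart from its day. With ethanol alone at day 7, 141 genes lay at least 0.5 below all other day 7 arrays and 3 lay at least 0.5 above them, against 0 to 8 genes in each direction for the other embryoid body arrays. Its mean correlation with the other day 7 arrays was 0.990, where the others had 0.994 to 0.995. The ethanol arrays correlated at 0.990 with each other at day 7 and at 0.996 at day 21, and at 0.977 to 0.983 between the days. Correlation with the undifferentiated array was 0.988 to 0.989 for the ethanol arrays at day 7 and 0.978 to 0.979 at day 21.

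Under ethanol, 3469 of 12254 genes changed between the days (28.3%), of which 2021 rose (16.5%) and 1448 fell (11.8%). At least 2-fold changes that passed the test ran to 393 genes higher (3.21%) and 157 lower (1.28%), and changes of at least 4-fold to 115 higher and 18 lower. Over all tested genes, called or not, 49.0% were higher at day 21. All 3469 genes had the same sign in both matched pairs, and their day 7 and day 21 ethanol values did not overlap. Both traits largely follow from the call, which uses the mean of the same 2 pairs, and add no evidence to it. Their share over all tested genes was not counted. The count depended on the arrays used. It was 4469 without the day 7 array with ethanol alone, 6763 without the day 7 array that had ethanol and FA, 1456 without the day 21 array with ethanol alone and 1559 without the day 21 array that had ethanol and FA. Leaving out the untreated or the FA array of day 7 gave 2252. None of the 3469 genes was called in the opposite direction in any of these fits.

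The genes with the largest increases were at similar low levels on both day 7 ethanol arrays and on the undifferentiated array, and rose on both day 21 arrays. FRZB encodes a secreted antagonist of WNT ligands. Its values were 6.31 and 6.87 at day 7 and 11.99 and 11.95 at day 21, a rise of 5.38 ± 0.22 or 41.7-fold (adjusted p = 1.68e-05). HOXA2, a hindbrain patterning factor, went from 6.88 and 6.68 to 11.83 and 11.82, a rise of 5.04 ± 0.13 or 33.0-fold (adjusted p = 4.53e-06). In both genes the 2 values of a day lay close together and the days were far apart. MEIS1, a DNA-binding partner of HOX proteins, rose by 4.49 ± 0.11 from 6.53 and 6.80 to 11.17 and 11.13. PAX6, a factor of neural progenitors and the eye, rose by 4.12 ± 0.13 from 6.52 and 6.09 to 10.43 and 10.43. CP, which encodes ceruloplasmin, a copper-carrying ferroxidase, rose by 4.11 ± 0.23, with a wider gap between its day 21 arrays (10.23 and 9.65).

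Other genes among the largest increases had varied roles. SPON1, a matrix protein of the floor plate, went from 7.32 and 7.17 to 11.13 and 10.93, a rise of 3.79 ± 0.07. PDZRN3, a ubiquitin ligase, had the smallest gaps within a day: 8.04 and 8.13 at day 7 and 11.73 and 11.72 at day 21, a rise of 3.64 ± 0.07 (adjusted p = 2.19e-06). CXCL14, a chemokine, rose by 3.65 ± 0.13, and ADGRG2, an adhesion receptor, by 3.66 ± 0.09. SKAP2, an adaptor protein of immune and other cells, rose by 4.29 ± 0.19 from 7.40 and 8.0 to 12.04 and 11.95. MIR99AHG, the host transcript of a small RNA cluster, rose by 3.87 ± 0.10.

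The largest decreases were smaller than the largest increases. RHD, the Rh blood group antigen, had the largest: its values were 10.88 and 11.41 at day 7 and 7.81 and 7.08 at day 21, and it fell by 3.70 ± 0.26 (adjusted p = 1.48e-04). The Rh gene RHCE is a near-identical copy, so how much of this signal belongs to RHD alone is uncertain. MAS1, a receptor for angiotensin fragments, fell by 3.07 ± 0.15 from 9.44 and 9.40 to 6.68 and 6.02. LRAT, which converts vitamin A into its stored ester form, fell by 2.69 ± 0.09 from 10.77 and 10.36 to 8.0 and 7.76. VIPR2, a neuropeptide receptor, fell by 2.26 ± 0.20, and its day 7 values differed more than those of most named genes (8.63 and 9.45). TRIML2 (−2.84), HHLA1 (−2.80), GLB1L3 (−2.67), VAT1L (−2.57), KLHL4 (−2.25), GPR50 (−2.15), OC90 (−2.14) and SYN3 (−2.10) were the others, with RPL39L (−2.39), which has the near-identical relative RPL39. Adjusted p-values of the 30 genes in both directions ran from 2.19e-06 to 4.69e-04, and all 30 were also called in the same direction without ethanol.

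**Figure D1:**
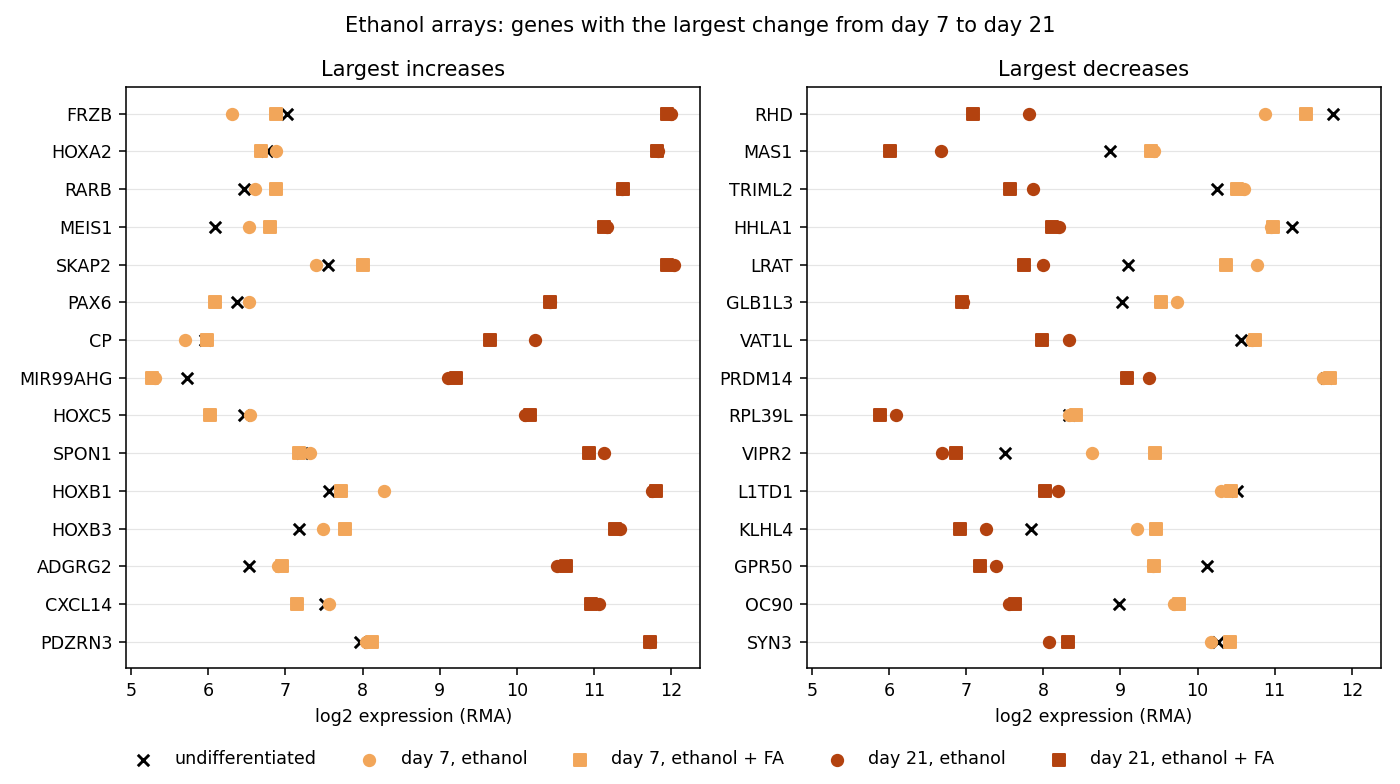
Log2 expression (x axis) of the 15 genes with the largest increase (left) and the 15 with the largest decrease (right) on the 4 ethanol arrays and the undifferentiated array, 1 point per array. In every row the 2 day 21 points lie apart from the 2 day 7 points, which follows from how the genes were chosen. For FRZB the points are at 11.99 and 11.95 against 6.31 and 6.87.

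Genes of the pluripotent state were lower at day 21. Of 27 tested members of the pluripotency list, 18 fell, 2 rose and 7 did not pass, with a median change of −0.76 against −0.01 over all genes. Leaving out any 1 array gave 15 to 18 that fell and 2 or 3 that rose. PRDM14, a repressor that guards the naive state, fell by 2.45 ± 0.11 from 11.63 and 11.72 to 9.36 and 9.08 (adjusted p = 2.76e-05). L1TD1, an RNA-binding protein of pluripotent cells, fell by 2.26 ± 0.11. CRIPTO, the co-receptor for NODAL, fell by 1.93 ± 0.14 from 12.16 and 12.40 to 10.51 and 10.21. DNMT3B, a de novo DNA methyltransferase, fell by 1.90 ± 0.07 from 11.96 and 11.97 to 10.07 and 10.05, both days tight. These day 7 values lay close to those of undifferentiated cells: 11.67 for PRDM14, 12.22 for CRIPTO and 12.23 for DNMT3B.

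Other factors of the list fell by less on the log2 scale. SOX2, shared by pluripotent and neural cells, had values of 12.22 and 12.19 at day 7 and 11.41 and 11.27 at day 21, and fell by 0.86 ± 0.07. SALL4, a zinc finger partner of the core network, fell by 0.74 ± 0.08, and ZFP42, a classic stem cell marker, by 0.76 ± 0.10. KLF4, also a reprogramming factor, fell by 1.63 ± 0.06 from 8.93 on both day 7 arrays to 7.29 and 7.30, below the overall median of 7.71. The members that rose were NR6A1, a nuclear receptor that represses pluripotency genes, by 1.70 ± 0.08, and LIN28B, which blocks maturation of let-7 small RNAs, by 0.65 ± 0.10. POU5F1 and NANOG had no transcript cluster named for them alone and were not analysed here.

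Most HOX genes bright enough to be tested rose. Of 39 HOX genes, 27 had a cluster of their own and 18 were tested. The 9 others were dim on every array, so a gene that stayed off could not enter the count. Of the 18, 17 rose and HOXD13 (0.17) did not pass, with a median change of 2.14. The 18 held 1 gene of the HOXA cluster, HOXA2, and 2 of the HOXC cluster, HOXC5 and HOXC8. With no filter on dim genes 18 of 27 rose and the median was 1.59. Leaving out any 1 array gave 16 to 18 that rose. In the HOXB cluster, read in chromosomal order, the changes were 3.78 for HOXB1, 3.0 for HOXB2, 3.68 for HOXB3, 2.14 for HOXB4, 1.79 for HOXB5, 1.59 for HOXB6, 0.87 for HOXB7, 2.13 for HOXB8 and 3.59 for HOXB9. Among these, the smallest change was thus at HOXB7, with larger ones toward HOXB1 and toward HOXB9. HOXB13, at the far end of the cluster, was dim on every array and was not tested. HOXB1, which marks a single hindbrain segment, went from 8.28 and 7.72 to 11.75 and 11.81. HOXB9, of the trunk, went from 7.50 and 7.16 to 10.87 and 10.96.

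In the HOXD cluster the change was 0.17 for HOXD13, 0.38 for HOXD9, 2.19 for HOXD8, 2.56 for HOXD4, 1.91 for HOXD3 and 1.82 for HOXD1. HOXD9, next to the limb and tail genes of the cluster, rose the least of the called members, from 8.28 and 8.23 to 8.62 and 8.66. HOXC5 rose by 3.85 ± 0.16 and HOXC8 by 1.06 ± 0.13. HOX cofactors and patterning receptors rose as well: 6 of 9 tested rose and 0 fell (4 without the untreated or the FA array of day 7, or without either day 21 ethanol array). They included MEIS1, MEIS2 (2.46 ± 0.09) and NR2F1, a nuclear receptor of the developing brain (3.40 ± 0.11).

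MIR10A, a microRNA gene between HOXB4 and HOXB5, had the largest change of the cluster. Its transcript cluster is named for the microRNA gene and does not tell the mature arms apart. Its values were 3.71 and 3.77 at day 7 and 8.90 and 9.06 at day 21, a rise of 5.24 ± 0.10 (adjusted p = 2.19e-06). The microRNA genes were chosen for mention after their values were seen. Of 173 with a cluster of their own, 35 were tested, and the others were dim on every array. Of the 35 tested, 7 rose and 3 fell under ethanol. That share is close to the 28.3% of all tested genes that changed (16.5% rose and 11.8% fell). The mature sequences of 5 of the 10 are shown because their seeds, bases 2 to 8 in capitals, show which of them share one. They are RefSeq's, by gene name, and 33 of the 35 genes were in its table. MIR302A and MIR302B, of the cluster typical of pluripotent cells, share a seed and both fell, whereas MIR99A and MIR99B share a seed and moved in opposite directions.
miR-10a-5p: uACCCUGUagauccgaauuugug
miR-99a-5p: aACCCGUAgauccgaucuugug
miR-99b-5p: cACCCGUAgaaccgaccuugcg
miR-302a-3p: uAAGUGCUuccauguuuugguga
miR-302b-3p: uAAGUGCUuccauguuuuaguag

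MIR302B went from 8.83 and 9.30 to 7.41 and 6.69 and fell by 2.01 ± 0.26. MIR302A fell by 1.93 ± 0.45, with 7.53 and 8.89 at day 7 and 6.65 and 5.90 at day 21, so its day 7 arrays were far apart. Without ethanol these genes changed by −3.69 and −3.15. The test of the difference missed the threshold for both (1.68 ± 0.37, adjusted p = 0.309 for MIR302B, and 1.21 ± 0.63, adjusted p = 0.785 for MIR302A). MIR99A rose by 0.74 ± 0.15 and MIR99B fell by 0.32 ± 0.09. The others that rose were MIR19B2 (1.92 ± 0.17), MIR15A (1.66 ± 0.12), MIR219A2 (1.62 ± 0.10), MIR503 (0.62 ± 0.08) and MIRLET7I (0.49 ± 0.10).

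**Figure D2:**
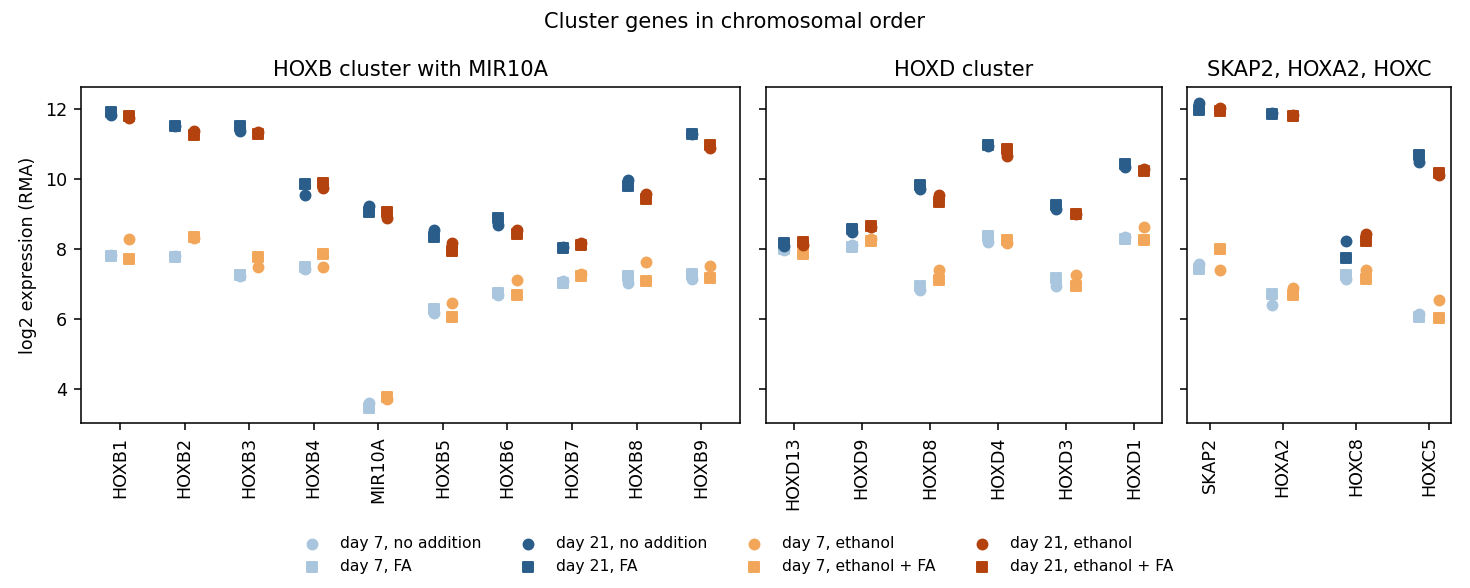
Log2 expression (y axis) of HOX genes, MIR10A and SKAP2 in chromosomal order, 1 point per embryoid body array, with ethanol arrays in orange and arrays without ethanol in blue. Day 21 points lie well above day 7 points along HOXB, with the smallest gap at HOXB7, and HOXD13 shows almost none.

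Retinoic acid genes moved in both directions, also within a role. Of 14 tested, 8 rose and 2 fell, with a median of 0.29. With no filter on dim genes 8 of 20 rose and 2 fell, and the median was 0.24. Without 1 array 5 to 10 rose, the fewest without the day 21 array with ethanol alone. Among receptors, RARB rose by 4.62 ± 0.09 from 6.60 and 6.88 to 11.36 and 11.37 (adjusted p = 3.39e-06), while RXRA (0.31 ± 0.08) and RXRB (0.28 ± 0.07) rose slightly. Of the 3 tested CYP26 enzymes, which break retinoic acid down, 2 rose and CYP26C1 (0.02, adjusted p = 0.844) did not pass. CYP26A1 went from 8.77 and 9.04 to 12.47 and 12.39, a rise of 3.53 ± 0.09, and CYP26B1 rose by 3.59 ± 0.09. DHRS3, which turns retinaldehyde back to retinol, rose by 3.16 ± 0.10, and CRABP2, which carries retinoic acid to its receptors, by 3.33 ± 0.11. On the supply side, LRAT fell, and so did ALDH1A3 (−0.57 ± 0.08), a retinoic acid-making dehydrogenase, while its relative ALDH1A1 rose by 0.60 ± 0.11.

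The promoter of RARB is known for a direct repeat through which the gene answers retinoic acid, so its letters are given. The 250 bases before the RARB start, chr3:25428013-25428262 (GRCh38.p14, plus strand, RefSeq), hold this repeat, known as DR5 and shown in capitals. It was sought on both strands of 27305 promoters of this length and found in 9 (0.0330%), 3 of them of tested genes. Besides RARB these were RPS24, a ribosomal protein gene that fell by 1.00 ± 0.08, and PHF8, a histone demethylase gene that fell by 0.25 ± 0.07. Of the 12 retinoic acid genes with a promoter in the table, RARB alone held this form, and other forms of the repeat were not sought.
RARB: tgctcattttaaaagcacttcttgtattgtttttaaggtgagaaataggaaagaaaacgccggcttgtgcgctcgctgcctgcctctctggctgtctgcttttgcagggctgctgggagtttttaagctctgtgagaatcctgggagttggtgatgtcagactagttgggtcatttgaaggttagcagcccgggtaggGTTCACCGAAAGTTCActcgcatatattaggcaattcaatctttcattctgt

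Markers of neurons and of axon growth rose more often than they fell. Of 20 tested neuronal genes, 12 rose and 4 fell (median 0.56), and without 1 array 9 to 13 rose. The other members with a cluster of their own were dim on every array. With no filter on dim genes 13 of 41 rose and 4 fell, and the median was 0.01. NCAM1, the neural cell adhesion molecule, went from 7.76 and 7.82 to 10.10 and 10.18, a rise of 2.35 ± 0.07. DCX, a microtubule protein of migrating neurons, rose by 1.84 ± 0.08 and SNAP25, of the synaptic vesicle machinery, by 1.32 ± 0.12. DPYSL3, a growth cone protein, went the other way and fell by 1.80 ± 0.11 from 12.30 and 12.47 to 10.70 and 10.46. L1CAM (−1.32 ± 0.08), STMN2 (−0.86 ± 0.13) and RBFOX3 (−0.37 ± 0.08), the source of the NeuN antigen, also fell.

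Genes of axon guidance and adhesion moved mostly one way. Of 34 tested, 21 rose and 2 fell, with a median of 0.70, and without 1 array 17 to 24 rose. With no filter on dim genes 22 of 41 rose and 2 fell, and the median was 0.50. SEMA3C, a secreted semaphorin, went from 6.41 and 6.28 to 9.71 and 9.84, a rise of 3.43 ± 0.09. PLXNA2, a semaphorin receptor, had 7.63 and 7.51 at day 7 and 10.88 on both day 21 arrays, a rise of 3.31 ± 0.08. UNC5C, a netrin receptor, rose by 2.59 ± 0.12, and ROBO2, a receptor for SLIT, by 2.51 ± 0.07, while its ligand SLIT2 rose by 1.55 ± 0.10. NTNG1 (−0.69 ± 0.09) and PLXNC1 (−0.40 ± 0.10) fell.

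Other lineage lists were mixed, and members dim on every array were not tested. Of 27 neural progenitor genes, 7 rose and 3 fell (4 to 12 rose and 1 to 9 fell without 1 array, the most that fell without the day 7 array that had ethanol and FA). They included PAX6, DBX1, of the ventral spinal cord (2.94 ± 0.23), and IRX3 (1.28 ± 0.12), with OTX2, of the forebrain and midbrain, falling by 1.66 ± 0.18 from 9.80 and 10.25 to 8.55 and 8.18. In the neural crest list 4 of 14 rose and 4 fell (3 to 6 and 2 to 7 without 1 array). EDNRB, the endothelin receptor of crest cells, rose by 3.06 ± 0.14, while the AP-2 factors TFAP2A (−2.05 ± 0.15) and TFAP2C (−1.67 ± 0.09) fell. Among 5 glial genes tested, SLC1A2 (2.87 ± 0.13) and PDGFRA (2.80 ± 0.11) rose, and SLC1A3 (−1.82 ± 0.12) and GJA1 (−1.29 ± 0.11) fell. With no filter on dim genes 2 of 14 glial genes rose and 2 fell.

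Markers of cells other than nerve also moved, in small numbers. Many were dim on every array and so not tested. With a cluster of their own there were 18 heart and muscle genes and 18 endothelial and blood genes. There were 13 such trophoblast genes and 10 such germ cell genes. The counts below are of tested members only. In the early mesoderm list 4 of 11 rose and 1 fell (3 to 6 and 1 to 4 without 1 array), LHX1 rising by 1.64 ± 0.09 and HAND1 falling by 0.82 ± 0.08. In the endoderm list 4 of 10 rose and 0 fell (4 fell without the day 7 array that had ethanol and FA), led by PROX1 (2.85 ± 0.09). Of 7 heart and muscle genes, MEF2C rose by 3.03 ± 0.12, while RYR2 (−0.90 ± 0.10), DES (−0.64 ± 0.07) and TBX20 (−0.49 ± 0.08) fell (2 to 5 that fell without 1 array). Of 7 endothelial and blood genes 1 rose and 2 fell (1 to 5 fell without 1 array), of 6 trophoblast genes 2 rose and 2 fell (1 or 2 rose without 1 array), and of 4 germ cell genes 2 rose and 1 fell (1 or 2 in each direction without 1 array). PRDM1, shared by germ cell precursors and other lineages, rose by 2.74 ± 0.06. Of 19 mesenchyme and matrix genes, 8 rose and 3 fell (5 to 9 rose without 1 array). FBN2, a fibrillin of developing tissue, went from 6.86 and 6.69 to 9.87 and 9.78, a rise of 3.05 ± 0.07, and LOX, which crosslinks collagen, fell by 1.22 ± 0.23. The part that a changing mix of cells had in any of these results was not tested.

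Signalling lists differed in direction. FGF receptors, ligands and feedback genes mostly fell: 13 of 22 fell and 2 rose, with a median of −0.50 (9 to 15 fell without 1 array, the fewest without either day 21 ethanol array). ETV4, a transcription factor induced by FGF, fell by 1.93 ± 0.10 from 10.65 and 10.47 to 8.68 and 8.57. SPRY4, a feedback inhibitor, fell by 1.57 ± 0.07, and the receptor FGFR1 by 1.10 ± 0.08. DUSP6, a phosphatase that switches off ERK and is usually induced by the same pathway, went the other way, from 7.85 and 7.37 to 11.13 and 10.92, a rise of 3.41 ± 0.11 (adjusted p = 7.12e-06).

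In the WNT list 6 of 28 rose and 6 fell (3 to 9 rose and 3 to 8 fell without 1 array). Besides FRZB, WLS, which carries WNT proteins to the surface, rose by 3.44 ± 0.06 from 7.20 and 7.34 to 10.65 and 10.77, and the ligand WNT5A rose by 2.40 ± 0.07. SFRP2, another secreted WNT antagonist, fell by 1.25 ± 0.06, opposite to FRZB. In the BMP, TGF-beta and NODAL list 9 of 24 rose and 4 fell (5 to 11 and 3 to 7 without 1 array). BMPR1B, a BMP receptor, rose by 2.20 ± 0.08 and the ligand TGFB2 by 1.81 ± 0.22, while GDF3, a NODAL-like ligand of pluripotent cells, fell by 1.36 ± 0.07. In the Notch list 5 of 18 rose and 1 fell (7 fell without the day 7 array that had ethanol and FA), with MAML3, a coactivator, at 2.39 ± 0.08 and the target HES1 at 1.68 ± 0.11.

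Of 11 tested hedgehog genes, 5 rose and 3 fell, and without either day 21 ethanol array 3 rose. The co-receptors BOC and CDON rose by 2.82 ± 0.09 and 2.76 ± 0.14, BOC from 7.03 and 6.84 to 9.86 and 9.64. A further co-receptor, GAS1 (0.41, adjusted p = 0.0514), did not pass. GLI3, a transcription factor of the pathway that acts largely as a repressor, rose by 1.18 ± 0.10. Among the pathway's targets, PTCH1 fell by 0.50 ± 0.07 from 11.42 and 11.40 to 10.95 and 10.88, and GLI1 fell by 0.75 ± 0.14.

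**Figure D3:**
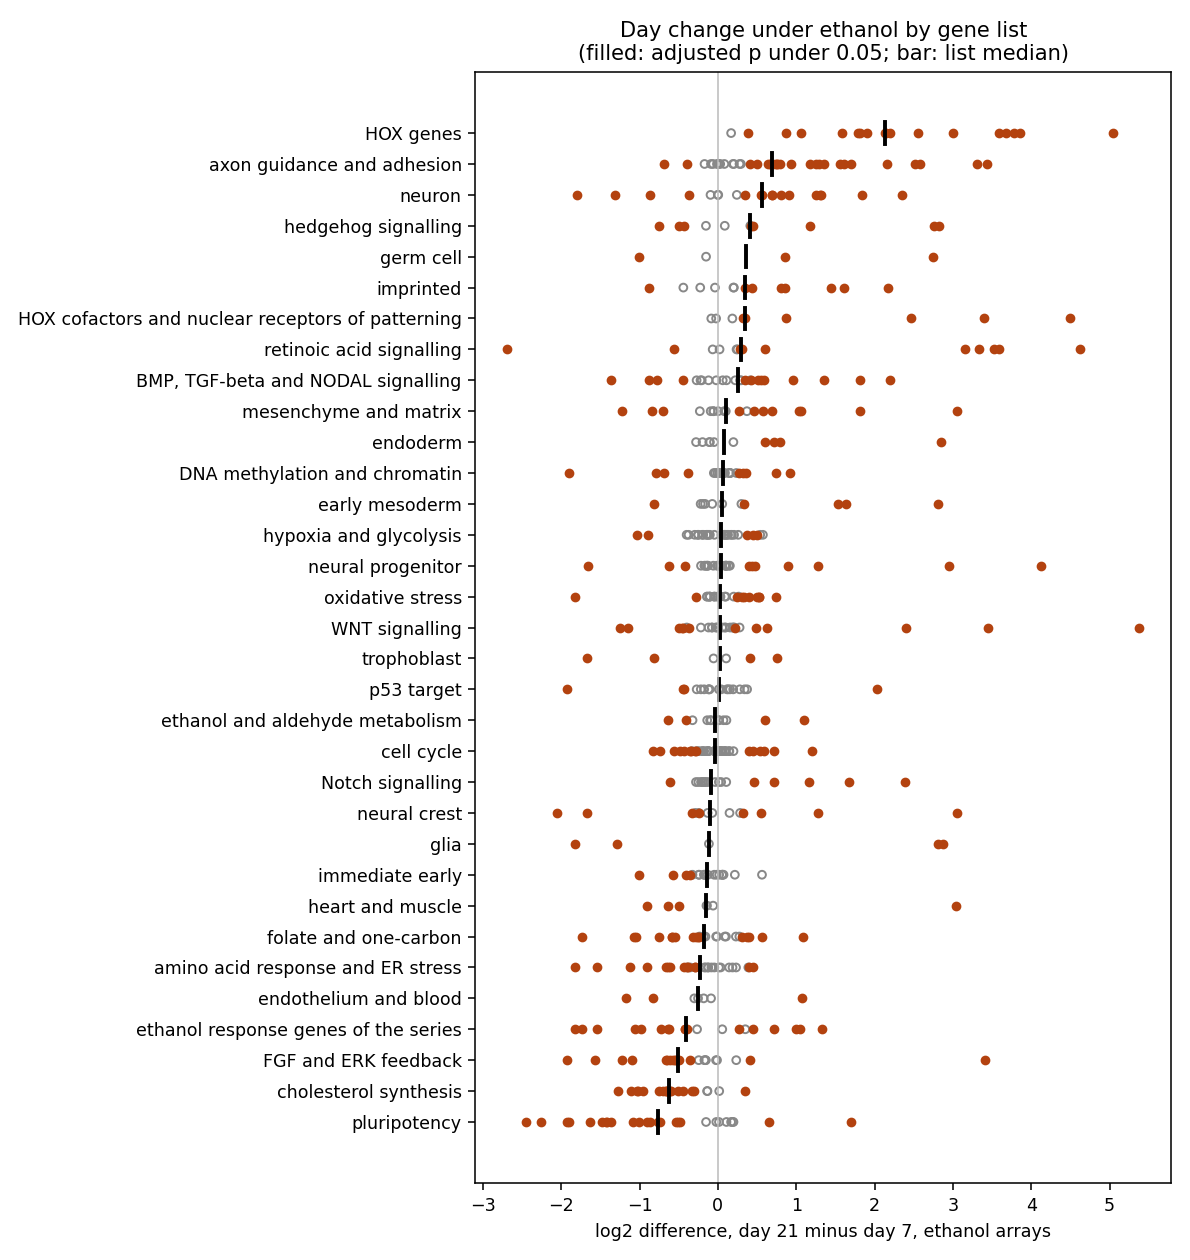
Day 21 minus day 7 on the log2 scale in the ethanol arrays (x axis) for each tested member of 33 gene lists, 1 point per gene, filled where the adjusted p was under 0.05, with the list median as a bar. HOX genes lie furthest right (median 2.14) and pluripotency genes furthest left (median −0.76). Some genes are in more than 1 list.

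Cholesterol synthesis fell almost as a unit. Cells make cholesterol through a chain of enzymes under the sterol-sensing factor SREBF2. Of 20 tested, 16 fell and 1, TM7SF2, rose by 0.34 ± 0.07, with a median of −0.63. The count depended on the arrays: 9 fell without the day 21 array with ethanol alone, 8 without the day 21 array that had ethanol and FA, and 18 without the day 7 array with ethanol alone. HMGCS1, an early enzyme of the chain, fell by 1.28 ± 0.14 from 10.70 and 11.15 to 9.61 and 9.68. INSIG1, a sterol-regulated brake, fell by 1.03 ± 0.16 from 9.52 and 10.00 to 8.73 and 8.72. In both genes the day 7 array with ethanol alone was the lower of the 2, and its fall was the smaller. DHCR7, the last enzyme, fell by 1.02 ± 0.09, STARD4, a sterol carrier, by 1.10 ± 0.21, and SREBF2 itself by 0.70 ± 0.09. Without ethanol the list also had 16 that fell and 1 that rose.

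SREBF2 acts together with factors that bind CCAAT boxes, so promoters were searched for CCAAT and for CACCCCAC, a sterol element, on both strands. CCAAT was in 15 of 18 cholesterol promoters (83.3%), in 35.1% of tested genes with a promoter and in 33.0% of all promoters. It was also in 7 of 8 HOX promoters (87.5%), a list that rose. CACCCCAC was in 1 of the 18, SREBF2, and in 2.49% of tested genes. HMGCS1, which fell most, and SREBF2 are shown, with matches in capitals (CCAAT on the other strand reads ATTGG) and no overlap between matches. They are the 250 bases before each start in GRCh38.p14, chr5:43313413-43313662 on the minus strand and chr22:41832855-41833104 on the plus strand.
HMGCS1: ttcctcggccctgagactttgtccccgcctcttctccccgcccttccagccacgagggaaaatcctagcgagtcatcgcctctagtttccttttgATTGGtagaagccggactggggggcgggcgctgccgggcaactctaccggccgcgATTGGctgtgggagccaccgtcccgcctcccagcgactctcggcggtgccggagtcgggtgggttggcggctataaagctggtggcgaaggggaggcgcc
SREBF2: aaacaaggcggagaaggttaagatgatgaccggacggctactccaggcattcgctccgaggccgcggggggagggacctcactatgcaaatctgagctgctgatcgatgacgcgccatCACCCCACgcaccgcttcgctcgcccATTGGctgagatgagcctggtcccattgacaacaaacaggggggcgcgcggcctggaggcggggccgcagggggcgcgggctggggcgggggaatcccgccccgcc

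Genes of one-carbon and amino acid metabolism also tended lower. In the folate and one-carbon list 11 of 25 fell and 5 rose (7 to 12 fell and 1 to 6 rose without 1 array, the fewest without either day 21 ethanol array). ALDH1L2, a mitochondrial folate enzyme, fell by 1.73 ± 0.10 from 9.33 and 9.19 to 7.64 and 7.41, and its partner enzyme MTHFD2 by 1.04 ± 0.09. GGH, which trims stored folate, rose by 1.08 ± 0.11. In the amino acid response and ER stress list 12 of 28 fell and 2 rose (6 to 16 fell and 0 to 6 rose without 1 array). SLC7A11, the cystine importer, fell by 1.82 ± 0.10 from 11.64 and 11.38 to 9.79 and 9.59, CHAC1, which degrades glutathione, by 1.55 ± 0.09, and ASNS, asparagine synthetase, by 1.12 ± 0.08. SLC7A11, ALDH1L2 and CHAC1 are also among 20 genes picked earlier for their ethanol response in these same arrays, which is not independent evidence of a direction. Of those 20, 11 fell and 6 rose between the days (7 to 11 and 4 to 7 without 1 array), and without ethanol 10 fell and 5 rose.

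Lists of stress and cell growth had few large changes. Of 12 ethanol and aldehyde metabolism genes 2 rose and 2 fell (1 to 3 and 1 to 4 without 1 array), among them ALDH5A1 (1.10 ± 0.10) and ACSS2, which makes acetyl-CoA from acetate (−0.64 ± 0.10). Of 25 oxidative stress genes 8 rose and 2 fell (3 rose without either day 21 ethanol array), NFE2L2, a master regulator, by 0.74 ± 0.10. Of 19 p53 targets 1 rose and 3 fell (7 rose and 6 fell without the day 7 array that had ethanol and FA): TP53INP1 rose by 2.03 ± 0.13 and PMAIP1, a death-promoting protein, fell by 1.93 ± 0.09. Of 41 cell cycle genes 6 rose and 9 fell (3 to 8 and 3 to 14 without 1 array), with CCNE2 at 1.20 ± 0.13 and CCND1 at −0.83 ± 0.10. Of 23 DNA methylation and chromatin genes 5 rose and 4 fell (0 to 9 rose without 1 array), DNMT3B leading. Of 13 imprinted genes 7 rose and 1 fell (4 to 8 rose without 1 array), with PEG10, of retroviral origin, going from 9.94 and 10.00 to 12.15 and 12.14, a rise of 2.17 ± 0.08. Of 20 immediate early genes 0 rose and 4 fell (2 to 9 fell without 1 array), MYC by 1.01 ± 0.06.

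The same day comparison without ethanol takes its means from other arrays, but both use the error of 1 joint fit. There, 4402 genes changed (35.9%; 19.6% rose), and 2969 genes changed in the same direction in both, which is 85.6% of the ethanol calls and 67.4% of the others. No gene was called in opposite directions. Of the 500 genes called under ethanol only, 484 had the same sign without it. Across genes, which are not independent replicates, the day changes with and without ethanol correlated at r = 0.946. The 2 ethanol pairs correlated with each other at 0.833 and the 2 pairs without ethanol at 0.959.

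The test of the difference itself, day change with ethanol minus day change without, called 1 of 12254 genes (0.00816%), and 917 genes had an unadjusted p under 0.05 (7.48%). The median SE of this difference was 0.12, and 15 genes had day changes at least 2-fold apart. A gene that misses this test is not shown to change alike. The gene called was SHISA3, of a family of proteins that hold back WNT and FGF receptors. With ethanol its values were 9.10 and 8.89 at day 7 and 9.17 and 9.12 at day 21. Without ethanol they were 7.49 and 7.53 at day 7 and 9.41 and 9.31 at day 21. The day 7 ethanol arrays were thus already near the level that all 4 arrays had at day 21. The day changes were 0.15 ± 0.08 with ethanol, which did not pass (adjusted p = 0.198), and 1.85 ± 0.08 without, and they differed by −1.69 ± 0.11 (adjusted p = 0.0358). This call was lost when any of 6 of the 8 embryoid body arrays was left out, with adjusted p from 0.347 to 0.691, and held without either day 7 ethanol array. It was also lost with no filter on dim genes (0.0519), with the sign kept throughout.

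The next largest differences are given as values, since none passed. PLAC8, a small cysteine-rich protein of many tissues, was at 6.57 and 6.48 with ethanol at day 7 and 6.76 and 6.79 at day 21, while without ethanol it was at 6.56 and 6.53 and then at 8.07 and 7.93. The day changes differed by −1.20 ± 0.10 (adjusted p = 0.0683). ALDH1A1 was near 6.65 at day 7 on both ethanol arrays and at 7.23 on both at day 21, against 8.09 and 8.44 without ethanol at day 21, a difference of −1.26 ± 0.15 (adjusted p = 0.151). For LAMA4, a laminin chain (−1.20 ± 0.22), YAF2 (−1.04 ± 0.18) and LRRN1 (−0.98 ± 0.11), the ethanol arrays were above the others at day 7 and below them at day 21. CHST9, a sulfotransferase (−1.09 ± 0.25), and CTXN3 (−0.99 ± 0.16) were lower with ethanol at day 21. Except for SHISA3, YAF2, NDRG1 and TXNIP, the 16 genes named for this difference passed the test of the day change under ethanol on its own, and all 16 passed it without ethanol.

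In the other direction the day change with ethanol was the higher. CRABP2 was at 8.41 and 8.81 with ethanol at day 7, below 9.42 and 9.38 without it, and at 11.93 and 11.95 at day 21, above 11.37 and 11.47, a difference of 1.31 ± 0.16 (adjusted p = 0.151). DPPA3, a maternal factor of germ cells and early embryos, was alike at day 7, from 10.67 to 10.82 on all 4 arrays. At day 21 it was at 9.97 and 9.50 with ethanol and 8.46 and 8.01 without, a difference of 1.51 ± 0.17 (adjusted p = 0.151). CDH1, E-cadherin, ended at 8.92 and 8.77 with ethanol and 8.05 and 7.98 without (1.18 ± 0.21). ERVH48-1, a retroviral envelope gene of placenta and stem cells, had a difference of 1.54 ± 0.29, PTPRB, a phosphatase of vessels, 1.37 ± 0.34, MIR9-1HG, a microRNA host transcript, 1.07 ± 0.22, and TXNIP, a glucose-responsive inhibitor of thioredoxin, 1.04 ± 0.52. TXNIP's value rested on single arrays: it was 0.35 without the day 7 array that had ethanol and FA, and 1.74 without the one with ethanol alone (adjusted p = 0.0103). Over all settings tried, each of the 16 kept its sign. This largely follows from choosing the largest differences on the same arrays and adds no evidence.

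**Figure D4:**
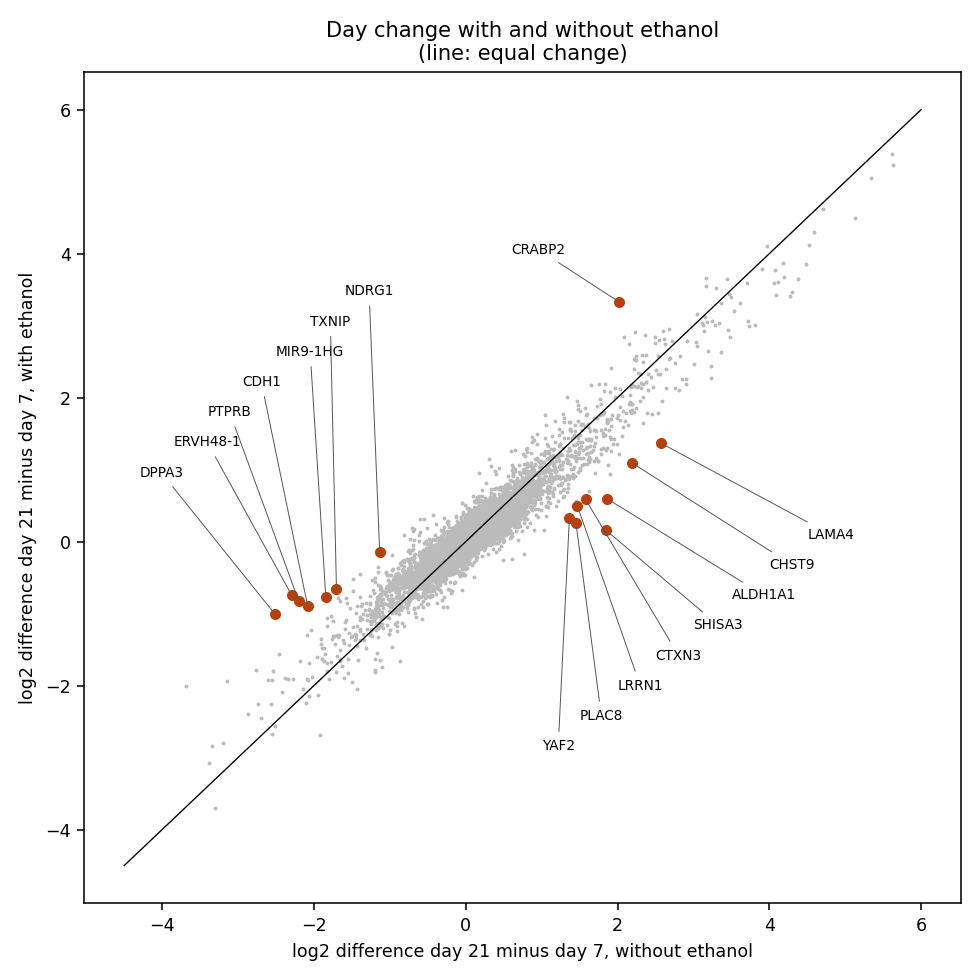
Day 21 minus day 7 on the log2 scale without ethanol (x axis) and with ethanol (y axis), 1 grey point per gene tested, with the line of equal change and the 16 genes named for their difference in red. Most of the 12254 genes lie along the line (r = 0.946), SHISA3 and PLAC8 near 0 on the ethanol axis, and CRABP2 above the line.

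By list, the pluripotency genes had a higher day change with ethanol in 18 of 27 members (median difference 0.25). HOX genes had one in 2 of 18 (median difference −0.29), against 49.8% of all genes. The median day change of the pluripotency list was nonetheless −0.76 with ethanol and −0.69 without, and 18 members fell in each. The sign count therefore does not show a smaller fall of that list under ethanol. No member of either list passed the test of the difference. HOXB2, for example, rose by 3.0 ± 0.07 with ethanol and 3.74 ± 0.07 without, and HOXD8 by 2.19 ± 0.12 and 2.90 ± 0.12.

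Genes of the hypoxia response and glycolysis had a nearly uniform sign of the difference. It was above 0 in 28 of 29 members (median 0.16), and none passed. Under ethanol 3 rose and 2 fell, and without ethanol 1 rose and 11 fell. The ethanol count turned on the day 7 arrays: it was 2 that rose and 11 that fell without the array with ethanol alone, and 12 that rose and 2 that fell without the array with ethanol and FA. The array with ethanol alone had the lowest value of the 4 day 7 arrays for 28 of the 29 genes, against 35.5% of all genes tested. NDRG1, a stress-response gene induced by low oxygen, was at 8.84 and 9.15 with ethanol at day 7 and 10.27 and 10.01 without, and from 8.83 to 9.01 on all 4 arrays at day 21 (difference 0.99 ± 0.18, adjusted p = 0.221). KDM3A, a histone demethylase induced by low oxygen, was at 10.00 with ethanol alone at day 7 and 10.77 with ethanol and FA, against 11.16 and 11.09 without ethanol. The part that this array has in the result of the list was not tested further than by leaving it out.

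**Figure D5:**
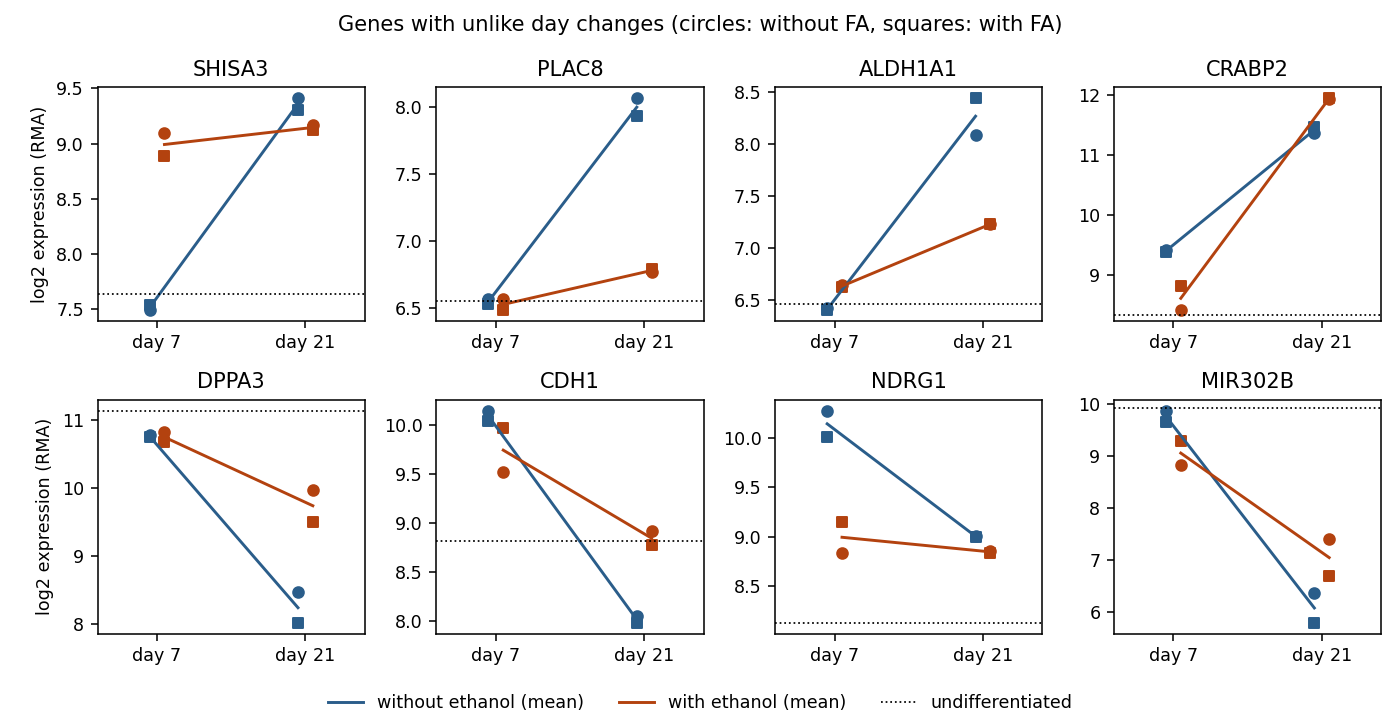
Log2 expression (y axis, scaled per gene) at day 7 and day 21 of 8 genes, 1 point per array. Ethanol arrays are in red and arrays without ethanol in blue. Lines run through the means of 2 arrays, and the undifferentiated level is dotted. The genes were picked for large differences in day change, and SHISA3 alone passed the test of that difference. SHISA3 starts high at day 7 only with ethanol (9.10 and 8.89), and PLAC8 stays low at day 21 only with ethanol (6.76 and 6.79).

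The 2 ethanol pairs were also compared as values, since each has 1 array a side. With ethanol alone 509 genes were at least 2-fold higher at day 21 (4.15%) and 132 lower (1.08%). With ethanol and FA the counts were 349 (2.85%) and 222 (1.81%). Both pairs shared 323 higher and 112 lower genes, and no gene was past 2-fold in opposite directions. The genes whose pairs differed most were those with unlike day 7 arrays. KPNA5, an importin, was at 8.40 with ethanol alone at day 7 and at 9.54, 9.59 and 9.46 on the other ethanol arrays. TCP11L2 was at 7.14 there and at 8.14, 8.35 and 8.04 on the others, and GKAP1 at 6.68, 7.62, 8.39 and 8.08. INSIG2, the sterol-sensing relative of INSIG1, was at 10.04, 10.95, 10.44 and 10.10 in the same order, so its pairs had opposite signs. TXNIP was high on the same array (11.09 against 10.02), and so were FGF8, CSH2, REXO1L1P and the keratin-associated KRTAP10-3 and KRTAP9-3.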

How the data were processed

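Total RNA of 9 cell samples was hybridised to Affymetrix whole-transcript arrays, 1 per condition. The authors deposited log2 expression values that the submitters' processing notes credit to RMA and Affymetrix Expression Console 1.3.1. RMA corrects background, quantile-normalizes the arrays and summarises probes per cluster. That the base is 2 was inferred from the values (2.49 to 14.3, array medians 7.67 to 7.76). It gives all arrays about the same distribution, so a shift of most genes together would not be seen. The number of arrays limits the precision, and no genome build of the authors was found in the labels.

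Of 33297 clusters, 19460 had 1 gene symbol, 1754 several and 12083 none. The 18417 genes with a cluster of 1 symbol were used, taking the cluster with the highest mean for the 769 with more than 1. Genes whose highest value did not pass the overall median (7.71) were removed, which left 12254 tested and 6163 out. A gene that is high in 1 group only passes through that group.

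A linear model with terms for ethanol, FA, day, ethanol by day and the undifferentiated array was fitted over all 9 arrays with limma 3.58.1 (lmFit, eBayes) in R 4.3.3. Residual degrees of freedom were 3, with 3.49 added by the prior. P-values were adjusted by Benjamini-Hochberg over 12254 genes, with a threshold of 0.05, and the median SE of the ethanol day change was 0.085. The fit was tested on simulated data. Single pairs were compared as values, at 2-fold.

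Named genes were the 15 largest called day changes in each direction, the 8 largest differences in each direction between day changes with and without ethanol, up to 4 members of each of 33 gene lists, and the 6 genes in each direction where the ethanol pairs differed most. Small RNAs, provisional names and clusters of several genes were passed over. Any other gene was named after its values were seen. Members and lists were chosen with earlier results of these data known, so lists are described by counts and medians with no test. Alternatives changed the model, the filter, the centring, the summary per gene and the arrays used.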

Additional observations from a re-analysis of the deposited data

Results flagged for a closer look

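SHISA3 was the gene whose day change differed between embryoid bodies with and without ethanol in the test of the ethanol-by-day term. The change with ethanol minus the change without was −1.69 ± 0.11 (SE, limma, adjusted p = 0.0358). The sign was negative in both the comparison without FA and the one with FA. Over all settings tried the difference lay between −1.78 and −1.61 and its adjusted p between 4.15e-04 and 0.691. The untreated day 7 array was the one without which the adjusted p was highest.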

How the results depend on the processing

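No paired analysis was possible because the labels carry no replicate numbers and each condition has 1 array; matching on FA is part of the model. The count of genes changed under ethanol was 1893 from the 4 ethanol arrays alone, in which fewer samples set the error, and ranged from 1456 to 6763 when 1 array was left out. Without ethanol that range was 1844 to 6852. The count for the difference between day changes was 3 with no FA term, 83 with all 2-way interactions and 0 with no filter on dim genes, which tests more genes, and ranged from 0 to 1112 when 1 array was left out (329 when it was the day 7 array with ethanol alone, 1112 when it was the one with ethanol plus FA). With a stricter filter, which tests fewer genes, 300 genes in the pair without FA and 225 in the pair with FA were at least 2-fold higher at day 21. The direction turned for 2 named genes, neither past the threshold with all arrays: CSH2 ranged from −0.70 to 0.36 when 1 array was left out (0.36 without ethanol alone at day 7), and INSIG2 from −0.77 to 0.33 (0.33 without ethanol plus FA at day 7). Apart from stated constructions, the cause was not tested. For day changes of 165 named genes, 2651 of the values under other settings kept direction and side of the threshold, 70 lost the call, 27 gained it, 13 moved in size and 2 turned. For the difference in 16 genes, 201 kept both, 44 gained a call and 7 lost it, with no sign turned. The spread rests on 3 residual degrees of freedom.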

Other observations

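Some gene families outside the lists were counted after their values were seen and are given as values. Of all tested genes, 16.5% rose and 11.8% fell under ethanol, and no family was tested against these shares. Among 10 integrin subunits, the receptors for matrix, 5 rose and 3 fell under ethanol, ITGA2 by 3.0, ITGB8 by 1.77, ITGB3 by 1.42 and ITGAV by 1.3, while ITGA6, a laminin receptor subunit, fell by 0.71. Of 12 sialyltransferases, which cap surface sugars, 6 rose and 0 fell, led by ST6GALNAC5 (1.28) and ST3GAL6 (1.26). ST8SIA2, which builds polysialic acid on NCAM1, rose by 0.66. Of 12 clustered protocadherins of the alpha and gamma groups 7 rose, by 0.33 to 0.59, where 11 of the 12 tested were of the alpha group, and these genes share exons, so their signals may not be separate. Of 6 IGF-binding proteins 3 rose, IGFBP5 by 2.79 and IGFBP2 by 1.06.

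Against 16.5% of all tested genes that rose and 11.8% that fell, 6 of 14 KLF factors fell and 1, KLF3, rose by 2.01. Of 8 GABA receptor subunits 2 rose and 3 fell, GABRB1 by 1.77 upward and GABRA5 changing by −1.06. Of 68 mitochondrial ribosomal proteins 2 rose and 3 fell, of 17 vacuolar ATPase subunits 5 rose and 1 fell, and of 31 proteasome subunits 0 rose and 1 fell by limma at an adjusted p under 0.05.

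Dim families were also compared between the ethanol pairs, but the filter kept some of their members only for a high value on the day 7 array with ethanol alone. The median day change of 30 keratin-associated protein genes was −0.39 in the pair with ethanol alone and 0.09 in the pair with ethanol and FA, and that of 10 olfactory receptor genes was −0.49 and 0.07. Without ethanol the medians were −0.20 and −0.12 for the first family and −0.15 and −0.12 for the second. Several olfactory receptor genes passed the filter (7.71) only through the day 7 array with ethanol alone. OR1F1, for example, was at 8.08 on that array and at 7.55 or lower on every other. Such a selection lowers the median of the pair with ethanol alone, so these medians cannot show that the array differed in olfactory receptors. Some keratin-associated genes passed in the same way, and how far this moved their median was not tested.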
